A study of Mus musculus with 15 samples.

Results

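The comparison followed the normal growth of the mouse kidney between 4 and 7 weeks of age, in male C57BL/6 mice that drank freely. It used 7 of the 15 arrays of the study. The 3 CON 4W arrays came from mice killed at 7 weeks of age after 4 weeks of housing, and the 4 CON 1W arrays from mice killed at 4 weeks of age after 1 week of housing. Age and time in housing changed together, so their effects cannot be told apart. All mice were weaned at 3 weeks of age and ate the AIN-93G diet without limit. The study set these controls against mice given a water bottle for only a short time each day (RES), and those 8 arrays did not enter the contrast. RNA of whole kidney was hybridized to Illumina MouseWG-6 BeadChips, and the labels give 1 kidney sample per array. Of 45281 probes, 19027 had a detection p under 0.05 on at least 3 of the 15 arrays and were tested, and 10861 named genes were each read from their brightest tested probe. Levels are on the log2 scale after background correction and quantile normalization, where a signal at the detection limit of these 7 arrays lay between 4.81 and 4.91. In whole tissue, fewer cells of a type and less RNA per cell cannot be told apart.

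In mice, new nephrons stop forming within days of birth, and the kidney then grows by cell division and by lengthening of the tubules that already exist. Over the weeks after weaning the proximal tubule takes up its adult load of transport and of chemical conversion by cytochrome P450 enzymes, and the matrix around tubules and capillaries is laid down more slowly. In male mice these weeks also include puberty, and the mouse proximal tubule is known for genes that androgens raise.

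The 2 ages differed on 433 probes at an adjusted p under 0.05 (limma, Benjamini-Hochberg over all tested probes), which was 2.28% of those tested. CON 4W was higher on 176 of them (0.925%) and lower on 257 (1.35%). Read by gene, 284 genes were called (2.61%), with 110 higher (1.01%) and 174 lower (1.6%) in CON 4W. On all 433 probes the 3 CON 4W arrays lay wholly above or below the 4 CON 1W arrays, which was also true of 16.7% of all tested probes. The first principal component of the 7 arrays held 35% of the variance and placed the CON 4W arrays between 16.6 and 23.9 and the CON 1W arrays between -19.4 and -12.9. An exact permutation test over the 35 ways to split 7 arrays cannot give a p below 0.029 for any gene. Of the 433 probes 407 reached that value, and the other 26 had 0.057. Leaving out 1 array at a time gave between 172 and 386 called probes, with the fewest without CON 4W replicate 2.

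**Figure D1:**
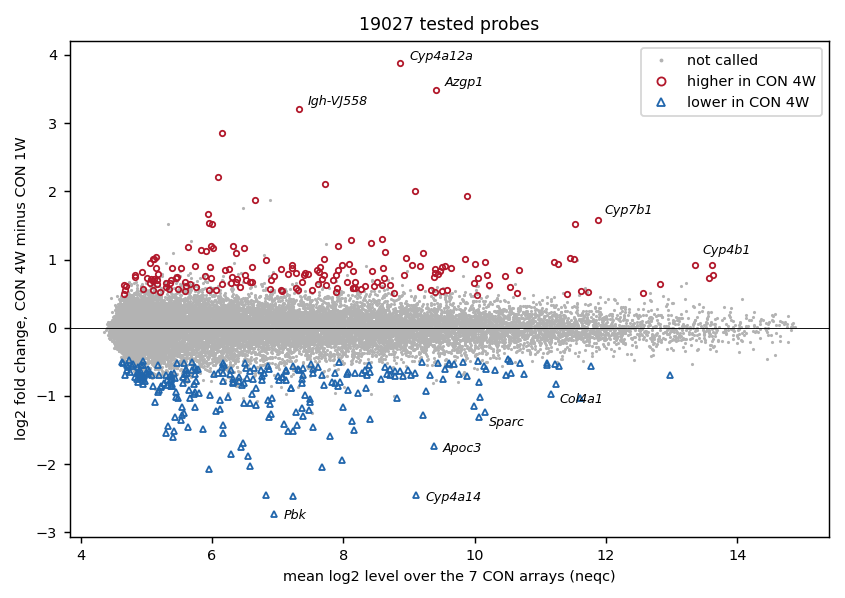
Each point is a tested probe, with its mean log2 level over the 7 CON arrays on the x axis and the log2 fold change of CON 4W minus CON 1W on the y axis. Open circles mark the 176 probes called higher in CON 4W, open triangles the 257 called lower and grey dots the rest. The largest rise was Cyp4a12a at 3.88 and the largest fall Pbk at -2.73.

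Genes of cell division formed the clearest group that fell. Of 25 tested genes of mitosis and chromosome segregation, 16 were lower in CON 4W, none was higher and 9 did not pass the test. Their median log2 fold change was -1.12, against 0.0 over all tested genes, and 22 of the 25 did not overlap between the ages, beside 18.4% of all tested genes. Pbk, a kinase of dividing cells, averaged 5.39 ± 0.21 in CON 4W and 8.12 ± 0.23 in CON 1W (log2 level, mean ± SD, n = 3 and 4). The fall was 6.65-fold.

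Many mitotic genes carry 2 short sequence elements close to the start of transcription: the CHR element TTTGAA, which is bound by the DREAM and MMB complexes, and CCAAT boxes, which are bound by NF-Y. The promoter sequences of RefSeq (GRCm38.p6) hold 250 bases before and 50 after each start, and 8751 of the 10861 tested genes had such a window. The stretches below are the 100 bases up to the start, 5′ to 3′ on the strand of the gene, for the 4 mitosis genes with the largest falls and a window, and for Cdk1 and Kif22, which were added because a match to TTTGAA lies before their start. Capitals mark TTTGAA and CCAAT in full on either strand (the opposite strand reads TTCAAA and ATTGG).
Cdc20 (chr4:118437344-118437443, minus strand): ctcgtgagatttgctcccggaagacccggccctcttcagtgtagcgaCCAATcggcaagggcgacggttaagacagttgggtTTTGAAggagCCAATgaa
Prc1 (chr7:80294376-80294475, plus strand): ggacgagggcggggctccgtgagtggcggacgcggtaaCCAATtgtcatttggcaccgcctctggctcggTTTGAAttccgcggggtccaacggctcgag
Birc5 (chr11:117849137-117849236, plus strand): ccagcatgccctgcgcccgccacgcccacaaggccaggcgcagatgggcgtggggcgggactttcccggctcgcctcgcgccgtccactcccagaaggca
Cdca3 (chr6:124830076-124830175, plus strand): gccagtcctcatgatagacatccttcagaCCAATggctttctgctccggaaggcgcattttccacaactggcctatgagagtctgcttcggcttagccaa
Cdk1 (chr10:69352913-69353012, minus strand): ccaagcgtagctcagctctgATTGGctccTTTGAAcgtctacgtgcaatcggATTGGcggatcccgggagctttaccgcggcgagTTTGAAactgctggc
Kif22 (chr7:127042421-127042520, minus strand): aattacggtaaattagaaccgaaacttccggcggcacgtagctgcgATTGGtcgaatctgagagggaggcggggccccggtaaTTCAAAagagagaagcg
Cdc20, the activator of the anaphase-promoting complex, had TTTGAA at position -18 from the start. Prc1, which bundles the microtubules between separating chromosomes, had it at -30 before the downstream of its 2 annotated starts. Cdk1, the kinase that drives entry into mitosis, had 2 copies, at -71 and -15. Kif22, a kinesin that moves chromosomes, also had 2, at -215 and -17, both on the opposite strand. In Cdca3, a factor for mitotic entry, the match came after the start, at position 30. Birc5, the survivin subunit of the chromosomal passenger complex, had neither element in its window.

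TTTGAA was found on either strand in 11 of the 14 mitosis genes that fell and had a window (78.6%), in 33 of all 135 lower genes (24.4%), in 14 of 88 higher genes (15.9%) and in 1227 of 8751 tested genes (14%). CCAAT was found in 11 of the 14 (78.6%), in 71 of the 135 lower genes (52.6%), in 36 of the 88 higher genes (40.9%) and in 42.6% of all tested genes. Outside the mitosis list the lower genes held TTTGAA in 22 of 121 genes (18.2%). Of the 8 mitosis genes that were not called, 6 had TTTGAA (75.0%). These are matches of letters, not measured binding.

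**Figure D2:**
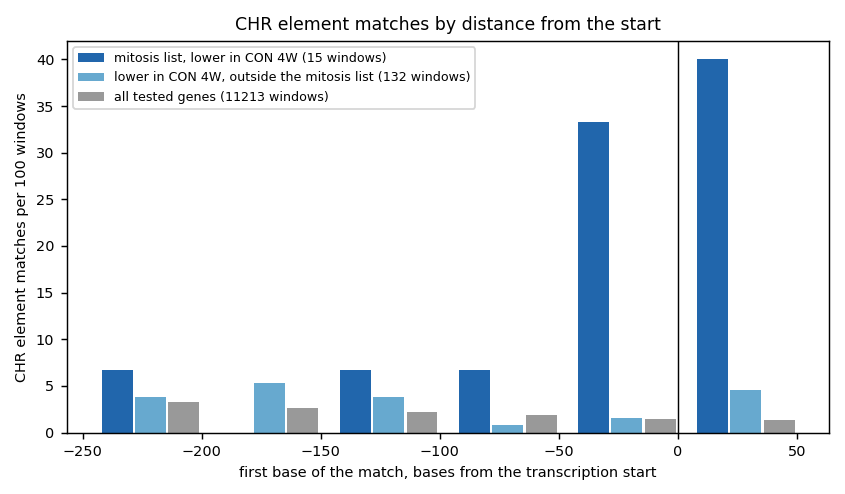
The x axis is the position of the first base of each TTTGAA match, in bases from the start of transcription and in steps of 50 bases, and the y axis the number of matches per 100 promoter windows. In the 15 windows of mitosis genes lower in CON 4W the matches gathered from 50 bases before to 50 bases after the start, at 33.33 and 40.0 per 100 windows, against 1.49 and 1.39 in the 11213 windows of all tested genes.

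By array, Pbk was 5.15, 5.45 and 5.56 in CON 4W, against 8.16, 7.87, 8.40 and 8.05 in CON 1W (log2 fold change -2.73, SE 0.15, adjusted p = 2.25e-05). Cdc20 was 5.80, 5.92 and 5.74 in CON 4W, against 8.50, 8.12, 8.49 and 8.03 in CON 1W (log2 fold change -2.46, adjusted p = 2.83e-05). Its other probes gave -1.88, -1.69 and -0.46. Prc1 was 5.36, 5.56 and 5.33 in CON 4W, against 8.21, 7.76, 8.07 and 7.47 in CON 1W (log2 fold change -2.46, adjusted p = 0.000114). For each of these genes the highest CON 4W array lay more than 1 log2 unit under the lowest CON 1W array. Birc5 was 5.32, 5.29 and 5.63 in CON 4W, against 7.45, 7.12, 7.81 and 7.42 in CON 1W (log2 fold change -2.03, adjusted p = 0.000242), and its other 2 probes fell as well. Cdca3 fell by 1.94 on the log2 scale (adjusted p = 0.000242), and Cdkn3, which removes phosphate from cyclin-dependent kinases, by 1.75 (adjusted p = 0.000242). Cdk1 was not detected on any CON 4W array and had 5.92, 6.15, 6.04 and 6.19 on the CON 1W arrays, so its fall was at least 2.29-fold (adjusted p = 0.000242). Such bounds set the CON 1W mean against the lowest detected signal of the CON 4W arrays. Among the mitotic kinases and checkpoint genes, Aurka fell by 1.46, Plk1 by 1.43 and Bub1b by 1.26 (adjusted p = 0.0012, 0.00926 and 0.0045), and Aurka and Bub1b were each detected on 1 of 3 CON 4W arrays. The other probe of Bub1b gave -0.32 (adjusted p = 0.401). Kif22 fell by 1.27, the spindle checkpoint gene Mad2l1 by 1.03 and the condensin subunit Ncaph by 0.91 (adjusted p = 0.00713, 0.0145 and 0.00282). Foxm1, a transcription factor of mitotic genes, was not detected in CON 4W and fell by at least 1.42-fold (adjusted p = 0.0298). With 1 array left out at a time the other calls named here held in all 7 fits, while that of Foxm1 held in 1, and its highest adjusted p was 0.106, with CON 4W replicate 2 left out.

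Genes of DNA replication and nucleotide synthesis were also lower. Of 25 tested, 6 were lower in CON 4W and none was higher, yet all 25 had a log2 fold change below 0, with a median of -0.37. Mcm5, a subunit of the replicative helicase, was 6.72, 6.66 and 6.74 in CON 4W, against 8.29, 8.24, 8.21 and 7.91 in CON 1W (log2 fold change -1.46, adjusted p = 0.000242). Rrm2, the regulated subunit of ribonucleotide reductase, fell by 1.23 (adjusted p = 0.00357), Ung, which removes uracil from DNA, by 1.11 (adjusted p = 0.00189) and the chromatin assembly factor Chaf1b by 1.10 (adjusted p = 0.00713). None of 15 tested G1 cyclins and CDK inhibitors was called by limma, while 4 had an unadjusted p under 0.05 and 2 were called by the fit over all 15 arrays. Of all 19027 tested probes, 3279 had an unadjusted p under 0.05 and that fit called 565. The same background holds for such counts in the lists below. Ccnd1, the D-type cyclin abundant in kidney, averaged 12.84 ± 0.10 in CON 4W and 13.17 ± 0.04 in CON 1W (log2 level, adjusted p = 0.149), and E2f1, a transcription factor of replication genes, averaged 6.32 ± 0.01 in CON 4W and 6.78 ± 0.10 in CON 1W (adjusted p = 0.0587). The growth inhibitor Cdkn1c averaged 11.07 ± 0.16 in CON 4W and 11.52 ± 0.08 in CON 1W (adjusted p = 0.0761).

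Of 15 tested genes on the list of replication-dependent histones, 2 were lower in CON 4W, and the list median was 0.14. Of the 15, 9 had a log2 fold change above 0. Without overlap 5 were higher and 2 lower, beside 18.4% of all tested genes that did not overlap. The signals summed over the list were higher in CON 4W (log2 of 14.61 to 14.69, against 14.31 to 14.50 in CON 1W). The list left out other copies: of all 37 tested core histone genes by symbol, 7 were lower and none was higher (median 0.13). H2ac15 was 6.07, 6.21 and 6.57 in CON 4W, against 7.75, 7.44, 8.03 and 8.01 in CON 1W (adjusted p = 0.00192), and H2ac22 fell by 1.16 (adjusted p = 0.00117). The 5 called copies outside the list were H2ac12, H2ac24, H2ac7 and H2ac11, which fell by 1.30, 1.23, 1.15 and 1.04 (adjusted p = 0.00213, 0.00381, 0.0045 and 0.00631), and H3c4, which fell by 0.69 (adjusted p = 0.0499) and kept its call in 1 of the 7 fits with an array left out. The H2A genes are nearly identical in sequence, so which copy these probes read is uncertain. Lockd, a long noncoding RNA from the Cdkn1b locus, was not detected in CON 4W and had 5.75, 5.81, 5.98 and 6.32 in CON 1W, a fall of at least 2.12-fold (adjusted p = 0.000597). LOC640739, an unplaced gene model, fell by 1.85 (adjusted p = 0.000242).

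**Figure D3:**
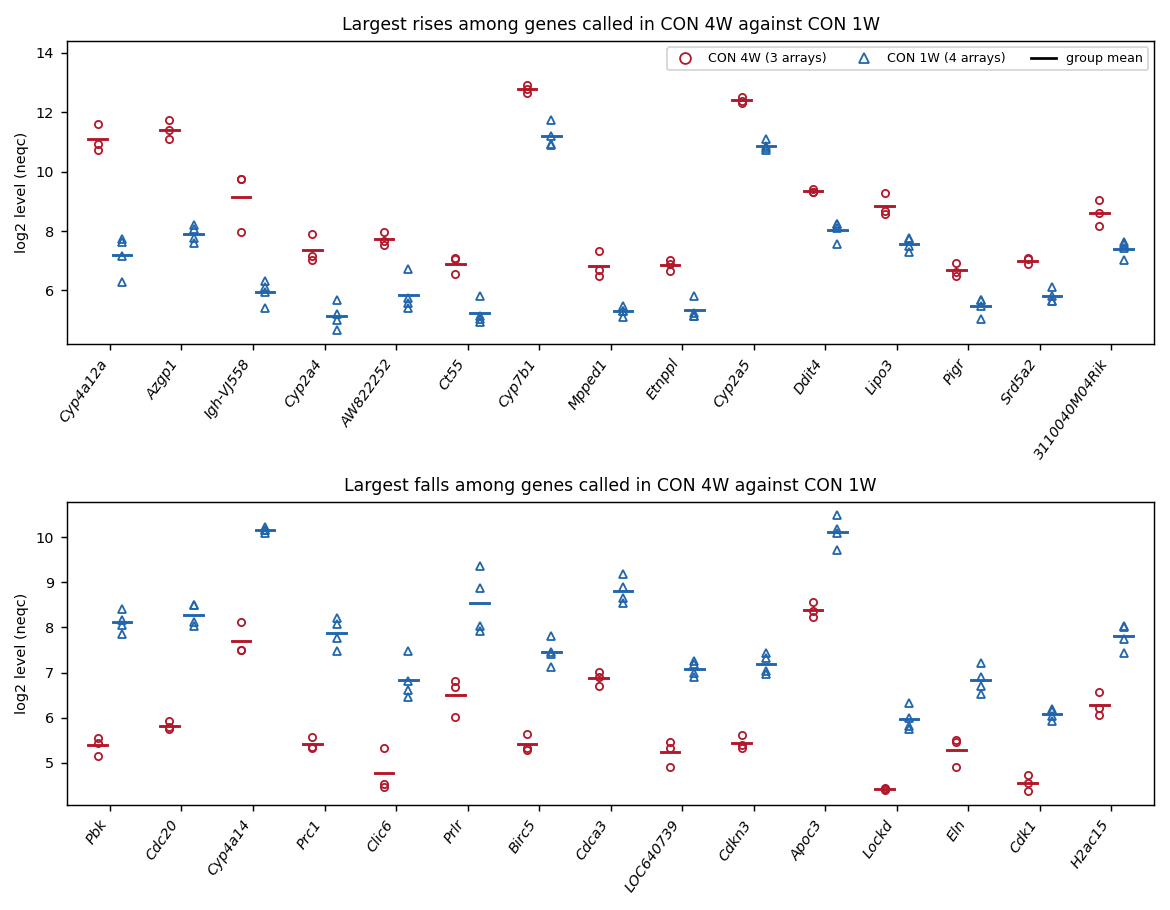
The log2 level on each array is plotted for the 15 genes with the largest rises (upper panel) and the 15 with the largest falls (lower panel). Circles are the 3 CON 4W arrays, triangles the 4 CON 1W arrays and bars the group means, and the 30 genes were chosen among called probes on which the 2 groups do not overlap.

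Collagens and the proteins that build fibres around them were the other large group that fell. Of 17 tested collagen chains, 9 were lower in CON 4W and none was higher (median log2 fold change -0.64), and 11 of the 17 did not overlap between the ages, beside 18.4% of all tested genes. The chains that fell belonged both to basement membranes (Col4a1, Col4a2, Col4a3, Col4a5 and Col15a1) and to fibrils or beaded filaments (Col1a1, Col5a1, Col6a1 and Col6a3). Col4a1 was 10.70, 10.47 and 10.65 in CON 4W, against 11.46, 11.67, 11.62 and 11.57 in CON 1W, a fall of 1.96-fold (adjusted p = 0.00203). Its partner chain Col4a2 was 9.55, 9.38 and 9.55 in CON 4W, against 10.29, 10.61, 10.78 and 10.37 in CON 1W (log2 fold change -1.02, adjusted p = 0.00487). Together they form the network found in nearly all basement membranes. Col4a3 and Col4a5, which the adult glomerulus uses in its basement membrane, fell by 0.64 and 0.88 (adjusted p = 0.0278 and 0.0337). Col6a1 fell by 1.09 and Col1a1 by 1.16 (adjusted p = 0.0104 and 0.0239), and Col1a1 was detected on only 1 CON 4W array. Col5a1 fell by 0.89, Col6a3 by 0.85 and Col15a1 by 0.71 (adjusted p = 0.00203, 0.00716 and 0.0141). The calls of Col4a1, Col4a2, Col5a1, Col6a1 and Col6a3 held with any 1 array left out. With CON 4W replicate 2 omitted the adjusted p was 0.0658 for Col15a1 and 0.109 for Col4a5. Col1a1 had 0.0888 without CON 4W replicate 3, and with CON 1W replicate 3 omitted Col4a3 had 0.0855. These were the highest of the 7 fits, of which Col4a3 and Col4a5 kept the call in 1, Col1a1 in 4 and Col15a1 in 6.

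Of 29 tested genes of elastic fibres and matrix assembly, 7 fell and none rose (median -0.28). Eln, the elastin precursor, was 5.47, 5.49 and 4.91 in CON 4W, against 6.53, 6.90, 6.70 and 7.21 in CON 1W (log2 fold change -1.54, adjusted p = 0.00268). The microfibril proteins Fbn1 and Mfap2 fell by 1.13 and 1.07 (adjusted p = 0.014 and 0.00779), and Lox, which cross-links elastin and collagen, by 0.98 (adjusted p = 0.0132). Sparc, a collagen-binding matrix protein, was 9.21, 9.08 and 9.70 in CON 4W, against 10.21, 10.63, 10.94 and 10.76 in CON 1W (adjusted p = 0.0078), while another of its 3 probes gave -0.10 (adjusted p = 0.76). That probe averaged 4.75 in CON 4W and 4.85 in CON 1W, near the detection limit. The collagen chaperone Serpinh1 fell by 0.83 and the procollagen peptidase Adamts2 by 0.69 (adjusted p = 0.0104 and 0.0345). The second probe of Serpinh1 gave -0.14 (adjusted p = 0.76). Of 12 laminins and basement membrane partners, Lamc1 alone was called, at -0.67 (adjusted p = 0.0152), while Nid1 had -0.86 with an adjusted p of 0.105. The other probe of Nid1 passed the test, at -0.95 (adjusted p = 0.0278). Ccn4, a matrix protein that the Wnt pathway induces, fell by 0.74 (adjusted p = 0.025). The calls of Eln, Mfap2 and Sparc held with any 1 array left out. Those of Lox, Serpinh1, Lamc1 and Ccn4 did not without CON 4W replicate 2 (adjusted p from 0.0513 to 0.0964), nor those of Fbn1 and Adamts2 without CON 4W replicate 3 (0.0614 and 0.0991). Of the 7 fits Adamts2 kept the call in 1, Ccn4 in 2, Lamc1 in 4, Fbn1 in 5, and Lox and Serpinh1 in 6.

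Of 22 tested regulators of kidney formation, 4 were lower in CON 4W and none was higher, with a median of -0.09. Tcf21, a transcription factor of podocytes and stromal cells, was 7.56, 7.68 and 7.42 in CON 4W, against 8.08, 8.58, 8.63 and 8.60 in CON 1W (adjusted p = 0.0128). Meox1 fell by 0.77, Tbx10 by 0.75 and Osr2 by 0.60 (adjusted p = 0.0132, 0.0109 and 0.024), all of them transcription factors. Without CON 4W replicate 3 none of the 4 passed the test (adjusted p from 0.0533 to 0.102), and Osr2 passed in only 1 of the 7 fits. Of 13 imprinted and fetal growth genes, the glypican Gpc3 was the 1 called, at -0.70 (adjusted p = 0.0187, or 0.0775 without CON 4W replicate 2). None of 17 genes of the IGF axis was called by limma (2 at an unadjusted p under 0.05), and Igf1 averaged 6.77 ± 0.24 in CON 4W and 7.02 ± 0.27 in CON 1W (adjusted p = 0.481).

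Genes known to respond to androgen were among those that rose. Of 13 tested genes known to be raised by androgen in mouse kidney, 5 were higher in CON 4W and none was lower. Their median log2 fold change was 0.60, and 11 of the 13 did not overlap between the ages, beside 18.4% of all tested genes. Cyp4a12a, a fatty acid hydroxylase of male mouse kidney, was 11.58, 10.94 and 10.71 in CON 4W, against 6.27, 7.72, 7.17 and 7.64 in CON 1W. This was a 14.7-fold rise (log2 fold change 3.88, SE 0.33, adjusted p = 0.000251). The probe annotated to its near-identical neighbour Cyp4a12b gave -0.21 (adjusted p = 0.588), so the 2 probes disagreed. Cyp7b1, which hydroxylates oxysterols and steroid precursors, was 12.92, 12.65 and 12.77 in CON 4W, against 10.93, 10.90, 11.21 and 11.73 in CON 1W (2.99-fold, adjusted p = 0.00247). Cyp4b1 was 14.24, 14.07 and 14.10 in CON 4W, against 13.26, 13.18, 13.29 and 13.12 in CON 1W (1.89-fold, adjusted p = 0.00207). Cyp2e1, an oxidase of small molecules such as ethanol, rose by the same factor (adjusted p = 0.00508), and Cyp2j13 rose by 0.63 on the log2 scale (adjusted p = 0.028). Kap, the androgen-regulated protein of mouse proximal tubule, averaged 12.97 ± 0.22 in CON 4W and 12.46 ± 0.05 in CON 1W without overlap (adjusted p = 0.0669). Odc1, which starts polyamine synthesis, had a log2 fold change of 0.60 and Gusb, a lysosomal glucuronidase, of 0.38, and neither passed the test (adjusted p = 0.071 and 0.12). Timd2 and Cndp2 had 0.76 and 0.48 (adjusted p = 0.0639 and 0.0617). The 4 larger rises held with any 1 array left out, while the adjusted p of Cyp2j13 was 0.0777 with CON 4W replicate 2 omitted and its call held in 1 of the 7 fits.

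Srd5a2, the enzyme that turns testosterone into dihydrotestosterone, was 7.08, 6.88 and 7.06 in CON 4W, against 5.66, 5.65, 5.81 and 6.10 in CON 1W, a 2.30-fold rise (adjusted p = 0.00189). Prlr, the prolactin receptor, fell to 6.68, 6.00 and 6.82 in CON 4W, against 9.36, 8.88, 7.93 and 8.03 in CON 1W (4.14-fold, adjusted p = 0.0116). The probes of both genes, and of several others below, had no symbol in the platform annotation and were named from the probe list of the study, which chose them on these arrays. Cyp4a14, a fatty acid hydroxylase known to be higher in female mouse kidney, was 7.50, 7.49 and 8.12 in CON 4W, against 10.17, 10.09, 10.16 and 10.23 in CON 1W (5.51-fold lower, adjusted p = 5.29e-05). Cyp4a14 and Prlr were the 2 called of 7 tested genes known to be higher in females, and both fell. Prlr could enter this count only through the probe list of the study, so its call is not independent evidence. Prlr missed the threshold when CON 4W replicate 2 was omitted (adjusted p = 0.0526). Of the other 5, 3 had a log2 fold change above 0, with 0.53 for Akr1c18 and 0.40 for the transporter Slc22a29 (adjusted p = 0.331 and 0.232), and Hao2, a peroxisomal oxidase, had -0.40 (adjusted p = 0.12).

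Of 29 tested genes on the list of cytochrome P450 enzymes, 8 rose and 2 fell in CON 4W. Between the ages 13 were higher and 4 lower without overlap, beside 18.4% of all tested genes that did not overlap. Outside the list, Cyp2j13 and the pseudogene Cyp4b1-ps2 (log2 fold change 0.77, adjusted p = 0.00486) also rose, so that of all 39 tested genes by symbol 10 rose and 2 fell. Cyp2a4, a steroid hydroxylase, was 7.16, 7.01 and 7.90 in CON 4W, against 5.01, 4.67, 5.21 and 5.69 in CON 1W (4.64-fold, adjusted p = 0.00203), where it was detected on 3 of the 4. Its close relative Cyp2a5 was 12.30, 12.52 and 12.38 in CON 4W, against 10.73, 10.86, 10.80 and 11.10 in CON 1W (2.88-fold, adjusted p = 0.000242). The 2 share most of their sequence, so the rise cannot be assigned to 1 of them with certainty, although the other 4 probes of Cyp2a5 rose too. Cyp2d9 and Cyp2f2 rose by 0.76 and 0.79 (adjusted p = 0.0408 and 0.0365), where Cyp2f2 was detected on 1 of 4 CON 1W arrays, and Cyp2d26 fell by 0.60 (adjusted p = 0.0377). Among 28 conjugation enzymes 2 rose and 2 fell. The epoxide hydrolase Ephx2 rose by 0.54 and the glucuronosyltransferase Ugt1a6a by 0.86, whose probe may read other forms of the shared Ugt1a locus (adjusted p = 0.0345 and 0.0394). The sulfotransferase Sult1a1 fell by 0.71 and the glutathione transferase Gsta4 by 0.58 (adjusted p = 0.0392 and 0.0303). The calls of Cyp2a4, Cyp2a5 and Cyp4b1-ps2 held with any 1 array left out. Those of the other genes called here did not, with adjusted p up to 0.135 for Cyp2d26 without CON 4W replicate 3, and Ephx2 and Sult1a1 passed in none of the 7 fits.

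Azgp1, a secreted glycoprotein known for mobilizing lipid, was 11.72, 11.38 and 11.10 in CON 4W, against 8.22, 7.76, 7.59 and 8.07 in CON 1W. The rise was 11.2-fold (SE 0.19 on the log2 scale, adjusted p = 2.06e-05), and its second probe rose by 2.86. Etnppl, which breaks down phosphoethanolamine, was 7.04, 6.89 and 6.67 in CON 4W, against 5.13, 5.82, 5.15 and 5.26 in CON 1W (2.88-fold, adjusted p = 0.00207). Ddit4, a stress-induced inhibitor of mTOR, was 9.30, 9.31 and 9.40 in CON 4W, against 8.09, 8.25, 7.56 and 8.25 in CON 1W (2.47-fold, adjusted p = 0.00343). The lipase gene Lipo3 rose 2.43-fold, Mpped1 2.90-fold, Ct55 3.16-fold and AW822252 3.65-fold (adjusted p = 0.00622, 0.00245, 0.00384 and 0.00713). 3110040M04Rik, an uncharacterized transcript, rose 2.30-fold (adjusted p = 0.0152, or 0.0574 without CON 4W replicate 3). Clic6, a chloride channel protein, was detected on 1 CON 4W array and fell by 2.07 (adjusted p = 0.00322).

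**Figure D4:**
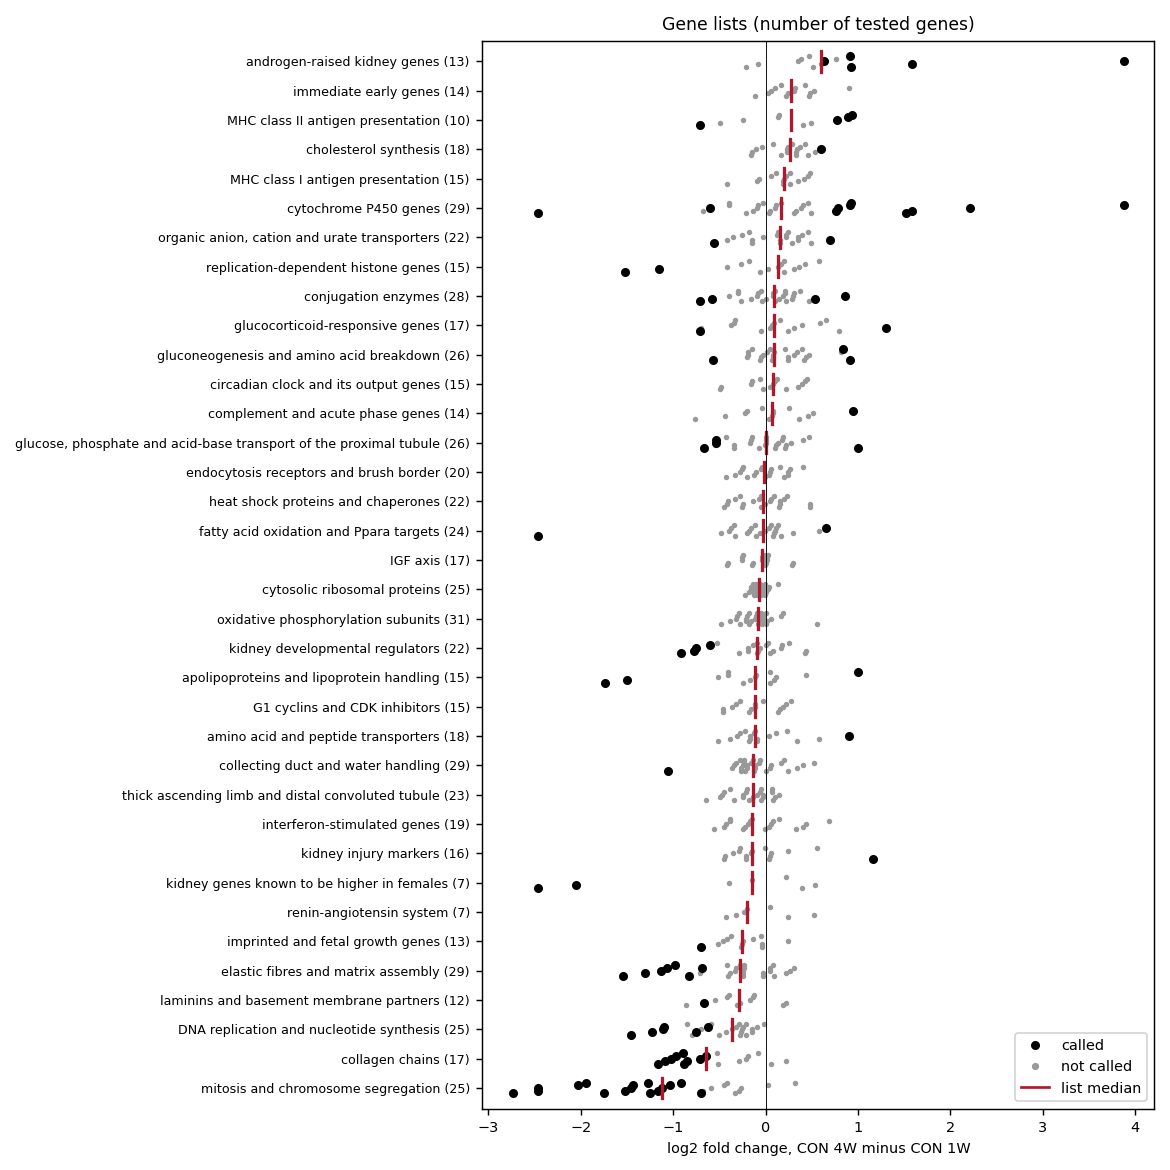
Each dot is a tested gene of the list named on the y axis, placed by its log2 fold change of CON 4W minus CON 1W, with called genes in black, the rest in grey and a red bar at the list median. Lists are ordered by median, from 0.60 for the androgen-raised kidney genes to -1.12 for mitosis and chromosome segregation.

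Single transporters of the tubule changed with age. Of 26 genes of glucose, phosphate and acid-base transport in the proximal tubule, 1 rose and 3 fell (median 0.00). Kcnk5, a potassium channel that supports bicarbonate recovery, was 12.11, 12.20 and 11.95 in CON 4W, against 11.53, 11.20, 10.74 and 10.87 in CON 1W (2.01-fold, adjusted p = 0.019), and its other probes gave 1.11 and 0.05. The probe at 0.05 averaged 4.56 in CON 4W and 4.51 in CON 1W, under the detection limit, so it could not show a change. Slc34a3, a sodium phosphate cotransporter, was 10.07, 10.23 and 10.21 in CON 4W, against 10.82, 10.97, 10.69 and 10.85 in CON 1W (adjusted p = 0.0146). The lactate transporter Slc5a12 and the carbonic anhydrase Car14 fell by 0.54 each (adjusted p = 0.0239 and 0.0417). Of 18 amino acid and peptide transporters the glycine transporter Slc6a9 was the 1 called, at 10.22, 9.95 and 10.03 in CON 4W, against 9.13, 9.16, 9.15 and 9.21 in CON 1W (1.87-fold, adjusted p = 0.00247). Slc7a7 was not called on its brightest probe, while its other probes gave -0.66 and -0.62 (adjusted p = 0.0316 and 0.0278). Of 22 organic anion, cation and urate transporters, the urate carrier Slc2a9 rose by 0.70 and Slc22a19 fell by 0.56 (adjusted p = 0.0264 and 0.037). The second probe of Slc2a9 gave -0.34 (adjusted p = 0.317), with both group means under the detection limit. Slc22a12, the urate exchanger of the brush border, had 0.46 (adjusted p = 0.0917). Of these calls Slc6a9 held with any 1 array left out. The others did not without CON 4W replicate 2 (Kcnk5 0.0779, Slc5a12 0.0874, Car14 0.141 and Slc2a9 0.102) or without CON 4W replicate 3 (Slc34a3 0.0535 and Slc22a19 0.104). Of the 7 fits Slc5a12, Car14 and Slc22a19 kept the call in 1, Slc2a9 in 2, Kcnk5 in 4 and Slc34a3 in 5.

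None of 23 genes of the thick ascending limb and distal convoluted tubule was called by limma, with 6 lower and 0 higher at an unadjusted p under 0.05. None of 20 genes of endocytosis and the brush border was called either, with 2 higher and 4 lower at that level. The fit over all 15 arrays called 1 gene in each list. Of 29 genes of the collecting duct and water handling, Atp6v1b1, a subunit of the proton pump of intercalated cells, was called lower at -1.06 (adjusted p = 0.0469), but it was detected on 2 of 3 CON 4W arrays and its other probe gave 0.15. Its call held in 1 of the 7 fits with an array left out. None of the 7 tested aquaporins of the lists was called. Aqp1, the channel of the proximal tubule and thin descending limb, averaged 12.91 ± 0.06 in CON 4W and 12.50 ± 0.15 in CON 1W (log2 level, adjusted p = 0.109). Aqp4, the basolateral channel of principal cells, averaged 9.21 ± 0.13 in CON 4W and 8.69 ± 0.17 in CON 1W (adjusted p = 0.0674). The arrays of the 2 ages did not overlap for either channel, which was also true of 18.4% of all tested genes.

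Lipid carriers moved in both directions. Apoc3, which slows the clearance of triglyceride-rich particles, was 8.56, 8.23 and 8.36 in CON 4W, against 9.72, 10.10, 10.18 and 10.48 in CON 1W (3.34-fold lower, adjusted p = 0.00084). Apoa4 was 7.40, 7.06 and 7.48 in CON 4W, against 8.65, 8.83, 8.87 and 8.88 in CON 1W (2.82-fold lower, adjusted p = 0.00035). Apob, the structural protein of such particles, went the other way, with 8.41, 8.21 and 8.20 in CON 4W, against 6.96, 7.30, 7.44 and 7.38 in CON 1W (2.01-fold higher, adjusted p = 0.00512). These were the 3 called of 15 tested apolipoprotein and lipoprotein genes. Of 24 genes of fatty acid oxidation and Ppara targets, the thioesterase Acot12 rose by 0.65 (adjusted p = 0.0104) and Cyp4a14 fell. Of 18 genes of cholesterol synthesis, Sqle, the squalene epoxidase, rose by 0.60 (adjusted p = 0.0239), and 14 of the 18 had a log2 fold change above 0. Cyp51 had 0.46 (adjusted p = 0.142). Of 26 genes of gluconeogenesis and amino acid breakdown, Amt of the glycine cleavage system rose by 0.91 and Hpd of tyrosine breakdown by 0.84, and Prodh2, which oxidizes hydroxyproline, fell by 0.57 (adjusted p = 0.0202, 0.022 and 0.0226). Pck1, the entry enzyme of gluconeogenesis, had 0.82 (adjusted p = 0.0643). The calls of Apoc3, Apoa4 and Apob held with any 1 array left out. With CON 4W replicate 2 omitted the adjusted p was 0.051 for Acot12 and 0.0832 for Amt, and without CON 4W replicate 3 Sqle had 0.0837, Hpd 0.07 and Prodh2 0.0934. Of the 7 fits Sqle and Prodh2 kept the call in 1, Hpd in 2, Amt in 4 and Acot12 in 6.

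Of 10 tested genes of MHC class II presentation, which shows antigens to helper T cells, 3 rose and 1 fell. Without overlap 3 were higher and 3 lower, beside 18.4% of all tested genes that did not overlap. H2-Ab1, a class II chain, was 10.75, 10.40 and 10.44 in CON 4W, against 9.76, 9.49, 9.77 and 9.36 in CON 1W (1.91-fold, adjusted p = 0.00926), and its 2 other probes rose too. H2-Eb1 was 10.10, 9.92 and 10.03 in CON 4W, against 9.25, 8.87, 9.37 and 9.01 in CON 1W (1.85-fold, adjusted p = 0.0104). Cd74, the invariant chain that escorts class II molecules, rose by 0.77 (adjusted p = 0.0227). Its other probes rose by 0.83 and 0.99 (adjusted p = 0.00578 and 0.00189). Ifi30, a lysosomal reductase that prepares antigens, fell by 0.71 (adjusted p = 0.0289). The probe named Igh-VJ558, after a family of immunoglobulin heavy chain variable genes, was 7.96, 9.76 and 9.74 in CON 4W, against 5.41, 5.94, 6.31 and 6.11 in CON 1W (9.29-fold, adjusted p = 0.00257), and which members of that family it reads is uncertain. Pigr, which carries polymeric antibodies across epithelia, was 6.92, 6.62 and 6.49 in CON 4W, against 5.49, 5.68, 5.67 and 5.05 in CON 1W (2.30-fold, adjusted p = 0.00631). The summed level of the 10 tested macrophage and dendritic cell markers was 9.53 to 9.74 in CON 4W, against 9.58 to 9.61 in CON 1W, and that of the 2 tested of 8 B and plasma cell markers was 6.49 to 6.69 in CON 4W, against 6.58 to 7.07 in CON 1W (log2 of the signals summed over the list). Their part in these rises was not tested. None of 15 class I genes and none of 19 interferon-stimulated genes was called by limma, with 3 and 8 at an unadjusted p under 0.05 and 1 each called over all 15 arrays. The complement protease C1s1 rose by 0.94 and the chemokine Cxcl1 by 1.17 (adjusted p = 0.0341 and 0.0158), and C1s1 was detected on 1 of 4 CON 1W arrays. The calls of H2-Ab1, H2-Eb1, Igh-VJ558 and Pigr held with any 1 array left out, while Cd74 missed the threshold when CON 4W replicate 2 was omitted (0.0696), and Ifi30, C1s1 and Cxcl1 had 0.105, 0.123 and 0.0574 without CON 4W replicate 3. Of the 7 fits Ifi30 kept the call in 1, Cd74 and C1s1 in 2 and Cxcl1 in 5.

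Markers of cell types placed the tissue as kidney at both ages, with 11 of 13 listed proximal tubule markers detected on all 7 arrays. Their summed level was 16.51 to 16.57 in CON 4W, against 16.42 to 16.59 in CON 1W, and the sums for the thick ascending limb, distal convoluted tubule, collecting duct and intercalated cells also overlapped. Sums that were lower in CON 4W without overlap were those of the endothelium (13.57 to 13.63, against 13.76 to 13.91 in CON 1W), podocytes (12.05 to 12.21, against 12.32 to 12.50 in CON 1W), smooth muscle (11.93 to 12.04, against 12.18 to 12.42 in CON 1W), fibroblasts and pericytes (11.25 to 11.33, against 11.43 to 11.63 in CON 1W) and red blood cells (16.16 to 16.17, against 16.28 to 16.43 in CON 1W). A sum follows its brightest members: of the 8 tested podocyte markers none was called, 5 had a log2 fold change above 0 and 3 below (median 0.03), and the bright Cdkn1c was among the 3. Of the 20 endothelial markers only Ramp2, a receptor partner for adrenomedullin, was called, at 8.62, 8.78 and 8.78 in CON 4W, against 9.38, 9.59, 9.88 and 9.76 in CON 1W (adjusted p = 0.00716). Egfl7 had -0.50 (adjusted p = 0.0657). Of the 10 tested fibroblast and pericyte markers 2 were called lower, Col1a1 and Tcf21, both described above. Of the 10, 4 had a log2 fold change above 0 and 6 below (median -0.23). Col1a1 also counts among the collagen chains above, so this sum is not separate from them. The part of these cell types in the fall of the collagens was not tested. Markers of brown and white fat varied between mice of 1 age, at 7.27 to 8.32 in CON 4W, against 6.40 to 9.09 in CON 1W. Of 8 adrenal cortex markers and 7 skeletal muscle markers, 1 each was tested and none was detected on all 7 arrays.

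No gene was called by limma in 6 further lists, which covered 31 oxidative phosphorylation subunits, 25 cytosolic ribosomal proteins, 22 heat shock proteins and chaperones, 15 circadian clock genes, 14 immediate early genes and 7 genes of the renin-angiotensin system. Their medians lay between -0.20 for the renin-angiotensin system and 0.28 for the immediate early genes. Over all 12 lists without a call, 48 of 223 genes had an unadjusted p under 0.05, 7 were called by the fit over all 15 arrays and 0 by the methods' t-test. The study names 43 genes for this comparison, of which 41 were tested, and 7 were higher, 23 lower and 11 not called. The study chose them on these arrays, so that count is not independent evidence. The count uses the brightest probe of each gene. Among genes not called on it, another probe was called lower for Mcm6 (-0.75), Nasp (-0.63), Rrm1 (-0.69) and Nid1 (-0.95). The adjusted p were 0.0139, 0.0212, 0.0392 and 0.0278. Another probe was called higher for Slc35a3 (0.75, adjusted p = 0.0111) and Ugt1a10 (0.64, adjusted p = 0.0236). Mcm6, Nasp, Slc35a3 and Ugt1a10 also had other probes that were not called.

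The same ages could be compared in other mice. RES 4W and RES 1W mice were also 7 and 4 weeks old, but had water for a short time a day only, and their 8 arrays share none with the 7 above. Of the 433 probes called with free water, 338 had the same sign in restricted mice (78.1%), and 118 were called the same way and 1 the opposite way, with 1161 of all 19027 probes called there (6.1%). Of the 176 higher probes 69 were called the same way, and of the 257 lower probes 49. RES 4W replicate 1 stood apart from the other arrays, and without it 158 of the 433 were called the same way and 27 the opposite way, with 25.1% of all probes called. Without any 1 of the other 7 restricted arrays, between 58 and 81 were called the same way, with between 179 and 401 of all probes called (0.941% to 2.11%).

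Cyp4a12a was 10.87, 10.27, 10.37 and 9.24 in RES 4W, against 5.82, 6.23, 6.34 and 6.27 in RES 1W (log2 fold change 4.02, adjusted p = 0.000123). Azgp1 changed by 2.89, Srd5a2 by 1.22, Prlr by -2.25 and Apob by 1.59 (adjusted p = 1.79e-05, 0.00789, 0.00483 and 3.84e-05). H2-Ab1 changed by 1.16 and Apoc3 by -1.39 (adjusted p = 0.0033 and 0.000746). All of these had the same direction at both water intakes. In the list of androgen-raised genes, 8 of 13 rose in restricted mice and none fell (median 0.86).

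For the mitosis genes the age effects differed. Pbk was 6.16, 6.01, 5.86 and 5.56 in RES 4W, against 5.81, 6.76, 5.51 and 6.29 in RES 1W, a log2 fold change of -0.19 (adjusted p = 0.66), and the difference between the 2 age effects was -2.54 (interaction over all 15 arrays, adjusted p = 0.00374). At both ages the restricted arrays lay under the 4 CON 1W arrays, the lowest of which was at 7.87. Of the 25 mitosis genes, 1 was called lower in restricted mice and none higher (median -0.22), and the interaction was called for 12 of them, or 16 without RES 4W replicate 1. Of the 17 collagen chains none was called in restricted mice (median -0.24), and the interaction was called for 2, or 9 without that array. Over all 19027 tested probes the interaction was called for 111, or 2851 without that array.

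**Figure D5:**
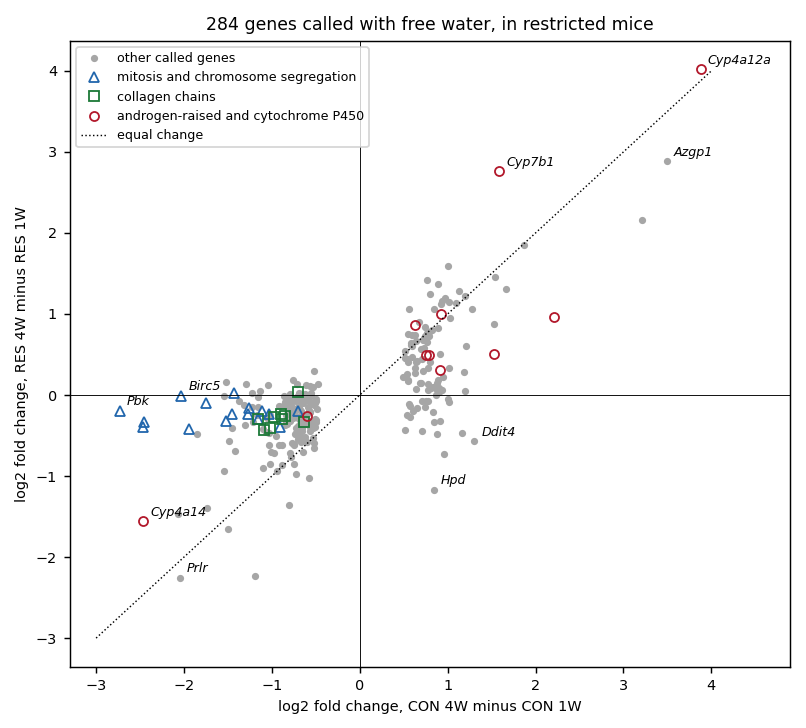
Each point is 1 of the 284 genes called with free water, with the log2 fold change of CON 4W minus CON 1W on the x axis and that of RES 4W minus RES 1W, from other arrays, on the y axis. The mitosis genes (triangles) lie along the line of no change in restricted mice, while Cyp4a12a and Azgp1 lie near the dotted line of equal change.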

How the data were processed

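RNA of whole kidney from 15 mice was hybridized to Illumina MouseWG-6 arrays (CON 4W n = 3, CON 1W n = 4, RES 4W n = 4, RES 1W n = 4). The authors read the arrays with GenomeStudio 1.0.2, and the deposited table holds an intensity and a detection p-value per probe. On inspection the deposited intensity values were background-subtracted (34.9% at or below 0) and quantile-normalized, and the authors' processed log2 values equalled their log2 wherever the intensity was 5 or more. From the intensities, neqc of limma 3.58.1 (R 4.3.3, offset 16) gave log2 levels. The 7 CON arrays were fitted with lmFit and eBayes for probes with a detection p under 0.05 on at least 3 of 15 arrays, with Benjamini-Hochberg adjustment and a threshold of 0.05. The restricted arrays were fitted separately, and differences between the age effects were tested as an interaction over all 15 arrays.

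Symbols came from the platform annotation, updated by gene ID: 16351 tested probes had 1 symbol, 7 several and 2669 none, of which 24 were named from the study's probe list. Named genes were the 15 largest rises and falls among called probes without overlap, up to 4 members of each list by adjusted p, and genes the study names. Another 37 of the 135 genes named were chosen after their values were seen. The members and lists were chosen with earlier results of these data known. The number of arrays limits the precision. In simulated data with 200 changed probes among 19027, the test recovered 80% of rises and 70% of falls of 1 log2 unit and 20% of changes of 0.5, with 4 false calls. Where nothing says that samples of a group came from separate litters, p-values measure the spread between these mice only. Alternatives were the intensities with no added background step, a larger offset (50), scaling to the median, the authors' log2 values, other filters on dim probes, other tests and each array left out. Alternatives added after the data were seen were log2 of intensity plus 16 without neqc and the fit of 4 groups without RES 4W replicate 1.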

Additional observations from a re-analysis of the deposited data

Results flagged for a closer look

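In a group of 4 arrays, 1 array lay far from the other 3 for 4 of the genes named, by the ratio of its gap to the range of the group, where chance gives about 1 in 20 groups. In CON 1W the ratio was 0.922 for Aurka, where replicate 4 was low, 0.956 for Ldhd, where replicate 3 was high, and 0.857 for Lox and 0.913 for Tcf21, where replicate 1 was low.

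For 32 of the genes named, the age effect differed between mice with free and with restricted water (CON effect minus RES effect on the log2 scale, interaction over all 15 arrays in limma, adjusted p under 0.05), and all 32 stayed under 0.05 without RES 4W replicate 1 (highest adjusted p 0.0071). Of these, 23 had fallen with free water, and each changed by less in restricted mice. Many of the genes named were chosen for a large or called change on the CON arrays. The interaction uses those arrays too, so the choice favours a smaller change in restricted mice. Among the mitosis genes the difference was -2.54 for Pbk, -2.12 for Prc1, -2.07 for Cdc20, -2.03 for Birc5 and -1.65 for Cdkn3. It was -1.53 for Cdca3, -1.46 for Plk1, -1.22 for Aurka, -1.09 for Bub1b and -1.04 for Kif22. Among the H2A histone genes it was -1.68 for H2ac15, -1.44 for H2ac12, -1.26 for H2ac24, -1.16 for H2ac11 and -1.13 for H2ac7. It was -1.07 for Rrm2 and -1.06 for Mcm5, both of DNA replication and nucleotide synthesis, -1.53 for Lockd and -1.38 for LOC640739. In matrix genes it was -1.18 for Fbn1, -0.70 for Col4a1 and -0.66 for Col5a1, and it was -1.30 for the growth factor Mdk.

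The other 9 had higher levels at the later age with free water, and 5 of them had lower levels at that age in restricted mice. The difference was 2.01 for Hpd, 1.87 for Ddit4, 1.44 for Pck1, 1.14 for Slc2a9 and 0.81 for Aqp1, which were those 5. It was 1.02 for Cyp2a5 and 0.81 for Slc6a9. Cyp7b1 (-1.18) and Slc22a12 (-0.81) had the larger rise in restricted mice. Hpd was called lower in restricted mice (limma adjusted p = 0.0317), while Ddit4 and Slc2a9 were not called there (0.126 and 0.0996). With free water, Aqp1, Pck1 and Slc22a12 had not been called higher. Over all tested probes the interaction was called for 111, or 2851 without RES 4W replicate 1.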

How the results depend on the processing

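The 433 called probes became 123 with no further background correction, 787 with an offset of 50, 702 with the stricter filter, 882 with a trended and robust prior, 79 with the methods' t-test, which the methods do not name for the arrays, and 913 in the fit of 4 groups without RES 4W replicate 1. They were between 271 and 565 under the other settings, including 565 over 4 groups and 15 arrays and 517 with the methods' ANOVA. At the methods' limits of FDR 0.01 and fold 1.5 there were 121 here, 124 with that ANOVA and 0 with the t-test. CON 4W was higher on 34.1% to 47.9% of the called probes, against 40.6% here. Leaving out 1 CON array gave from 172 to 386 probes. Same-numbered arrays did not deviate together (correlations of 0.186, -0.0961 and 0.00875), so the numbers were not taken as pairs, and the fit with the replicate block called 170. Leaving out 1 RES array gave from 58 to 158 of the 433 probes called the same way in restricted mice, against 118. Of 115 called genes named, 65 stayed called with any CON array left out, 50 lost the call in at least 1 fit and 3 lost it in all 7. No called gene named here changed direction under these settings. Cyp4a12b, not called, had log2 fold changes from -0.34 to 0.01 with 1 array left out, 0.01 being without CON 4W replicate 2. In the 12 lists without a call the methods' ANOVA called 10 of 223 genes. For dim probes the detection limit bounds the fold.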

Other observations

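Several called genes outside the lists, chosen after their values were seen, add to the groups above. Anln, an actin-binding protein of the cleavage furrow, was 5.24, 5.08 and 4.71 in CON 4W, against 6.72, 7.02, 6.45 and 5.80 in CON 1W (log2 fold change -1.49, limma adjusted p = 0.0145). Mdk, a heparin-binding growth factor of developing tissue, was 7.52, 7.13 and 7.40 in CON 4W, against 8.91, 8.66, 8.59 and 8.76 in CON 1W (adjusted p = 0.000732). Phgdh, the entry enzyme of serine synthesis, fell by 0.86 (adjusted p = 0.00309). Anln and Phgdh were each detected on 2 of 3 CON 4W arrays. Dio1, which turns thyroxine into the active hormone, fell to 5.90, 6.17 and 6.80 in CON 4W, against 7.54, 7.70, 7.65 and 7.93 in CON 1W (2.67-fold, adjusted p = 0.00518), and the zinc transporter Slc39a5 fell by 1.03 (adjusted p = 0.0157).

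Among genes that rose, the chemokine Cxcl9 was 6.75, 6.53 and 6.37 in CON 4W, against 5.68, 5.25, 5.29 and 5.47 in CON 1W (2.19-fold, adjusted p = 0.00319), and it had a log2 fold change of 1.28 in restricted mice (adjusted p = 0.0141). Cd83, a surface protein of mature dendritic cells, rose by 1.19, the checkpoint ligand Cd274 by 0.80 and the macrophage growth factor Il34 by 0.73 (adjusted p = 0.0118, 0.0473 and 0.0419), and Cd83 was detected on 3 of 4 CON 1W arrays. Ldhd, a mitochondrial lactate dehydrogenase, was 12.05, 12.13 and 11.91 in CON 4W, against 10.98, 10.99, 11.10 and 10.99 in CON 1W (2.02-fold, adjusted p = 0.00133), and rose by 1.15 in restricted mice (adjusted p = 0.000858). The mitochondrial carrier Slc25a25 rose by 1.02, Ftcd of histidine breakdown by 0.85 and the thiolase Acat1 by 0.84 (adjusted p = 0.00192, 0.0278 and 0.0287). With 1 array left out at a time, the calls of Mdk, Phgdh, Dio1, Cxcl9, Ldhd and Slc25a25 held in all 7 fits. Anln and Slc39a5 missed the threshold when CON 4W replicate 3 was omitted (0.0622 and 0.0547), Cd83 when CON 4W replicate 2 was (0.0544), and Cd274, Il34, Ftcd and Acat1 in at least 4 fits.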
